A study of Mus musculus with 18 samples.

Results

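The 7 genes described here, *Fgf5*, *Otx2*, *Pou3f1*, *Zic2*, *Lef1*, *Tcf7l1* and *Grhl2*, are known from the formative and primed states of the mouse epiblast. They were chosen by name, and their rows were found by Ensembl identifier through the GENCODE M21 annotation, as 7 of the 54446 genes in the deposited counts. Mouse embryonic stem (mES) cells received 5-ethynyl uridine (EU), which enters newly made RNA, at 1 mM for 10, 20 or 40 min, 42 h after seeding, and the labelled RNA was biotinylated, captured and sequenced. The cells were either wild type (WT) or *Tet2*-/- (hereafter *Tet2*-KO), with 3 dishes in every one of 6 groups, or 18 libraries. All groups grew in medium with 15% serum, LIF, the GSK3 inhibitor CHIR99021 at 3 µM and the MEK inhibitor PD0325901 at 1 µM, and feeder cells had been cleared by passage on gelatin. The methods describe no more than 1 WT and 1 *Tet2*-KO line, so the replicates are taken as dishes, p-values measure the spread between dishes, and a line cannot be told apart from its genotype. ERCC spike-in RNA was added in proportion to total RNA, so a level per ERCC read is a level per total RNA, and fewer expressing cells cannot be told apart from less RNA per cell.

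Naive embryonic stem cells resemble the epiblast before implantation. Before they differentiate they pass through a formative state, in which naive factors are switched off, and then a primed state that resembles the epiblast after implantation. FGF signalling through ERK drives this transition, and the MEK inhibitor in the medium holds cells back from it. β-Catenin, which CHIR99021 stabilizes, acts through the TCF/LEF proteins: TCF7L1 mainly represses naive genes, whereas LEF1 mainly activates Wnt targets. FGF5 is a secreted growth factor that marks the epiblast after implantation, and OTX2, POU3F1 and ZIC2 are transcription factors of the formative epiblast. GRHL2 is a transcription factor that keeps epithelial genes active at the same stage.

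The libraries held between 17931614 and 23069143 gene reads and between 44162 and 512186 ERCC reads, and intervals from reads cover counting error only. Levels are given per 1000 ERCC reads, or as a share, in reads per 1000000 gene reads (CPM). The whole *Tet2* gene had between 9730 and 13011 reads in *Tet2*-KO libraries and between 13117 and 17092 in WT libraries, and a total over the gene does not check the loss of part of it. Its share of gene reads was lower in *Tet2*-KO, with a log2 fold change of -0.20 ± 0.01 (SE; adjusted p = 1.42e-16 in edgeR's quasi-likelihood test). Per ERCC read *Tet2* was higher in *Tet2*-KO, at 0.54 ± 0.05 (adjusted p = 2.42e-24, edgeR). Of the pluripotency genes that define mES cells, *Pou5f1* had at least 1438 reads and *Nanog* at least 4971 reads in each library, and *Sox2*, a gene lying inside a longer gene on the same strand, was listed at 0. The counting was not described in full, so it was read from the counts. Of 452 protein-coding genes inside the span of another gene on the same strand, 99.8% had no read in any library, against 11.3% of 811 genes inside a gene on the opposite strand only and 13.1% of 11842 genes without an overlap. This is the pattern that strand-specific counting over whole gene spans leaves, with reads in shared stretches discarded.

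The methylated cytosines that TET enzymes oxidize lie mostly in CpG dinucleotides. The promoters of the 2 members whose averaged share of gene reads was raised and lowered by the widest margin are shown first. Each is the 250 bases before the outermost start in the RefSeq table for GRCm38.p6 (for *Otx2* this start lies inside the span that GENCODE gives), read 5′ to 3′ on the gene's strand, with each CpG in capitals. *Otx2* is on the minus strand, and its window is chr14:48667645-48667894. *Fgf5* is on the plus strand, and its window is chr5:98253934-98254183.

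*Otx2*: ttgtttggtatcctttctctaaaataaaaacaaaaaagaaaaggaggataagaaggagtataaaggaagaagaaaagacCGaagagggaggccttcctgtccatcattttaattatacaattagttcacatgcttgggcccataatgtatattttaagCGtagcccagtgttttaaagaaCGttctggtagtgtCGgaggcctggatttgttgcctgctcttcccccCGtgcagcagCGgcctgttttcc
*Fgf5*: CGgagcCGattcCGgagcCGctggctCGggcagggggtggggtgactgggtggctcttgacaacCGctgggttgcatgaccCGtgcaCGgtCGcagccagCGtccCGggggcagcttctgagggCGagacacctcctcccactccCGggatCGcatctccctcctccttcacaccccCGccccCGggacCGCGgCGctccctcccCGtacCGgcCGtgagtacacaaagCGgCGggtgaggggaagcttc

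The *Otx2* window held 6 CpGs, the median of 32851 RefSeq windows of the same length, at 42% GC. The *Fgf5* window held 24 CpGs at 70.8% GC, and 12% of all windows held as many or more. The window of *Tcf7l1*, whose share was raised, held 29 CpGs, and that of *Lef1*, whose share was lowered, held 11. Of all windows 6.78% and 35.6% held as many or more. *Otx2* has 4 RefSeq windows, with 6 to 14 CpGs, and *Lef1* has 4 with 5 to 14. The short core motifs CTTTGA of TCF/LEF factors, TAATCC of OTX factors and AACCGG of GRHL factors were searched on both strands. None of the 3 occurred in the windows of *Otx2*, *Fgf5*, *Lef1* or *Tcf7l1*, and they occurred in 13.8%, 6.25% and 5.62% of all windows. No methylation was measured in these libraries, and a link between CpG counts and the changes of share was not tested.

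Averaged over the 3 EU times and scaled to the spike-in, *Otx2*, *Grhl2*, *Tcf7l1* and *Zic2* were higher in *Tet2*-KO than in WT mES cells, and the remaining 3 members did not pass the test. These are 4 of 7 members called higher, where 80.5% of the 19910 genes tested were called higher and 4.15% lower, so a call on this scale says little by itself. The median log2 fold change was 0.70 over all genes tested and 0.59 over the members. *Otx2*, at 2.90 ± 0.13, *Grhl2*, at 2.18 ± 0.08, and *Tcf7l1*, at 1.23 ± 0.05, lay above the interquartile range of all genes, which ran from 0.44 to 0.92. *Zic2*, at 0.40 ± 0.08, was called higher but lay below that range. As a share of gene reads, which removes the common rise, *Otx2*, *Grhl2* and *Tcf7l1* remained higher and *Fgf5*, *Lef1* and *Zic2* were lower. Background calls on this scale were 24.6% higher and 32.0% lower, with a median log2 fold change of -0.04 over all genes and -0.15 over the members. Calls came from the quasi-likelihood test of edgeR, adjusted over all genes by Benjamini-Hochberg, at 0.05. Where libraries of the genotypes are said below not to overlap, the share of all genes doing so is not given. Such a separation is therefore no trait particular to a member.

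**Figure D1:**
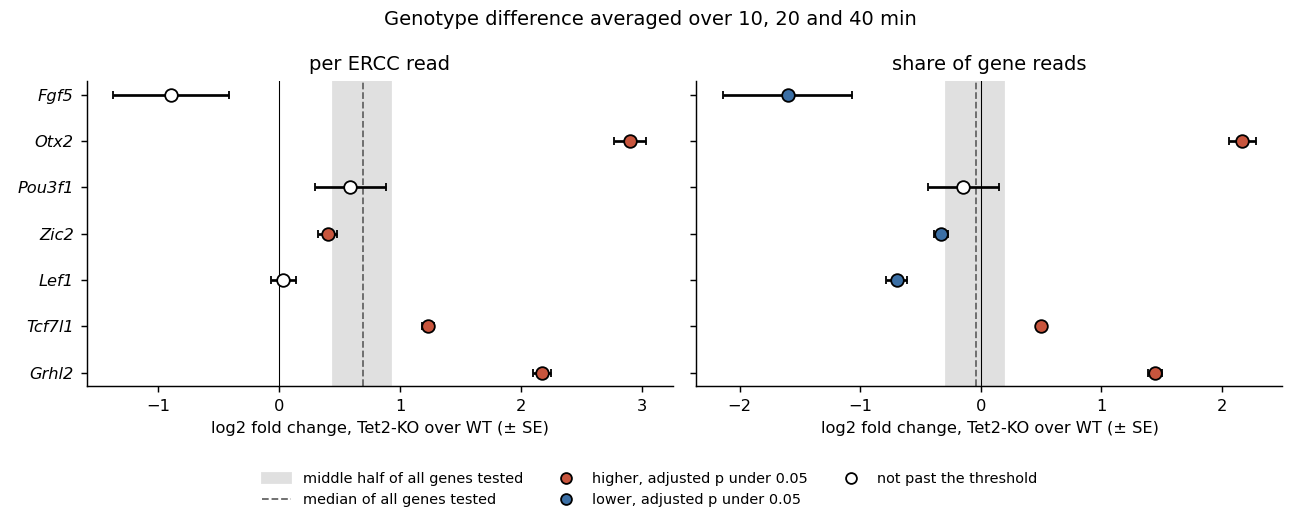
Log2 fold change of *Tet2*-KO over WT averaged over the 3 EU times, per ERCC read (left) and as share of gene reads (right), with SE bars, for the 7 members. Grey bands and dashed lines give the interquartile range and the median of all genes tested, filled points passed an adjusted p of 0.05 (red higher, blue lower), and *Zic2* changes side between the scales, from 0.40 to -0.33.

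*Fgf5* (ENSMUSG00000029337, chr5:98254184-98277030 on mm10, plus strand) was the member with the fewest reads. In WT it had 1, 20 and 10 reads in the 3 libraries at 10 min, 11, 8 and 7 at 20 min and 5, 8 and 2 at 40 min. In *Tet2*-KO it had 2, 1 and 0 reads at 10 min, 3, 10 and 1 at 20 min and 2, 5 and 0 at 40 min. The ranges of the genotypes overlapped at each EU time. Its share of gene reads averaged over times was lower in *Tet2*-KO, with a log2 fold change of -1.60 ± 0.53 (adjusted p = 0.0111, edgeR). Per ERCC read the difference was -0.89 ± 0.48 and did not pass the test (adjusted p = 0.0736, edgeR). At 10 min alone *Fgf5* was lower on both scales, at a log2 fold change of -3.07 ± 1.00 as share (adjusted p = 0.0122, edgeR) and -2.06 ± 0.91 per ERCC read (adjusted p = 0.0305, edgeR). Summed over libraries, 31 WT reads stood against 3 *Tet2*-KO reads at 10 min, a share 9.26-fold higher in WT with an exact 95% counting interval of 2.89 to 47.3. That ratio was chosen after the values were seen. The corresponding ratios were 1.78 (0.898 to 3.69) at 20 min and 1.91 (0.733 to 5.54) at 40 min, and the change of the difference from 10 to 40 min did not pass the test (2.16 ± 1.47 as share, adjusted p = 0.415, edgeR). The calls at 10 min rested on single libraries: without WT replicate 2, which held 20 of the 31 reads, the log2 fold changes were -2.18 as share (adjusted p = 0.124, edgeR) and -1.08 per ERCC read (adjusted p = 0.324, edgeR). Without *Tet2*-KO replicate 3, which held no read, they were -2.56 (adjusted p = 0.0599, edgeR) and -1.59 (adjusted p = 0.133, edgeR). The call per ERCC read was also lost without *Tet2*-KO replicate 2 (adjusted p = 0.0705, edgeR).

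*Otx2* (ENSMUSG00000021848, chr14:48657677-48673819, minus strand), a homeobox factor that leads the exit from the naive state, had the largest averaged log2 fold change of the 7 members on both scales. WT libraries held 20, 25 and 26 reads at 10 min, 26, 32 and 28 at 20 min and 46, 33 and 29 at 40 min. *Tet2*-KO libraries held 177, 121 and 129 reads at 10 min, 103, 104 and 125 at 20 min and 112, 104 and 111 at 40 min. Every *Tet2*-KO library lay above every WT library. The share was 1.07 ± 0.15 CPM (SD, n = 3) in WT and 7.12 ± 0.65 in *Tet2*-KO at 10 min, and 1.67 ± 0.30 and 5.75 ± 0.54 at 40 min. Its log2 fold change of share was 2.17 ± 0.11 averaged over times (adjusted p = 1.18e-17, edgeR), and 1.17% of all genes tested had a higher one. The difference was 6.64-fold at 10 min, 3.999-fold at 20 min and 3.41-fold at 40 min as share, and 13.5-fold, 5.603-fold and 5.50-fold per ERCC read. This narrowing was itself tested, with a change of log2 fold change from 10 to 40 min of -1.30 ± 0.33 per ERCC read (adjusted p = 0.00273, edgeR) and -0.96 ± 0.28 as share (adjusted p = 0.0268, edgeR). The change as share did not pass without a filter on low counts (adjusted p = 0.0802, edgeR), nor without WT 10 min replicate 1 (-0.85), WT 40 min replicate 1 (-0.81), *Tet2*-KO 10 min replicate 1 (-0.88) or *Tet2*-KO 40 min replicate 2 (-0.89).

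2 annotated genes overlap *Otx2*. *Otx2os1*, a long non-coding RNA on the opposite strand, shares 5112 bases with it and had 4265 reads in WT and 6686 in *Tet2*-KO. Its share was higher in *Tet2*-KO, with a log2 fold change of 0.79 ± 0.04 (adjusted p = 3.08e-18, edgeR). *Gm49154*, a transcript of uncertain status on the same strand, covers 1726 bases of it and had 1 read in each genotype, and reads in that stretch would not have been counted for *Otx2*. The nearest tested genes on either side were the lincRNA *Gm49151*, 7.90 kb away, at 0.65 ± 0.21 (adjusted p = 0.00927, edgeR), and the pseudogene *Gm48909*, 21.8 kb away, at 0.39 ± 0.47 (adjusted p = 0.5, edgeR).

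*Pou3f1* (ENSMUSG00000090125, chr4:124656807-124660655, plus strand), a POU-domain factor encoded by a single exon, was also sparsely read. WT libraries held 19, 4 and 16 reads at 10 min, 10, 18 and 15 at 20 min and 10, 12 and 27 at 40 min. *Tet2*-KO libraries held 9, 9 and 15 reads at 10 min, 13, 6 and 13 at 20 min and 17, 14 and 13 at 40 min. The genotypes overlapped at each EU time on both scales. The share differed by a log2 fold change of -0.15 ± 0.29 (adjusted p = 0.697, edgeR), so a difference of this size was not detectable at this depth. Per ERCC read the value was 0.59 ± 0.29 (adjusted p = 0.0548, edgeR), close to the median of all genes. *Gm2164*, an antisense gene that shares 363 bases with *Pou3f1*, had 600 reads in WT and 458 in *Tet2*-KO, a log2 fold change of share of -0.22 ± 0.11 (adjusted p = 0.1, edgeR).

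*Zic2* (ENSMUSG00000061524, chr14:122475435-122479852, plus strand), a zinc finger factor that binds enhancers, went opposite ways on the 2 scales. WT libraries held 260, 277 and 262 reads at 10 min, 301, 304 and 351 at 20 min and 408, 370 and 288 at 40 min. In *Tet2*-KO libraries there were 229, 200 and 215 reads at 10 min, 218, 228 and 211 at 20 min and 248, 274 and 217 at 40 min. The share in WT was above that in *Tet2*-KO at each time, without overlap. As a share it was 12.02 ± 0.39 CPM in WT and 10.9 ± 0.59 in *Tet2*-KO at 10 min (SD, n = 3), 15.9 ± 0.53 and 11.4 ± 0.50 at 20 min, and 16.6 ± 2.27 and 12.9 ± 0.74 at 40 min. The margin was narrow at 10 min, where the lowest WT library stood at 11.66 and the highest *Tet2*-KO library at 11.28. It was also narrow at 40 min, where these stood at 13.99 and 13.55. At 10 min the log2 fold change of share, -0.15 ± 0.11, did not pass the test (adjusted p = 0.262, edgeR). The averaged log2 fold change of share was -0.33 ± 0.06 (adjusted p = 1.54e-05, edgeR), with calls at 20 min (-0.48 ± 0.10, adjusted p = 0.000304) and 40 min (-0.36 ± 0.10, adjusted p = 0.00447) in the same edgeR fit. Per ERCC read *Zic2* was higher in *Tet2*-KO, by 0.40 ± 0.08 averaged over times (adjusted p = 1.13e-06, edgeR), and at 20 min it did not pass the test, with levels of 2.34 ± 0.16 and 2.35 ± 0.17 per 1000 ERCC reads and a log2 fold change of 0.0039 ± 0.14 (adjusted p = 0.983, edgeR). Its share rose with labelling time in WT, by 0.47 ± 0.10 from 10 to 40 min (adjusted p = 0.000274, edgeR), and by 0.25 ± 0.11 in *Tet2*-KO, which did not pass the test (adjusted p = 0.0606, edgeR). *Zic5*, a paralog of *Zic2*, had a log2 fold change of share of 0.01 ± 0.06 (adjusted p = 0.917, edgeR).

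**Figure D2:**
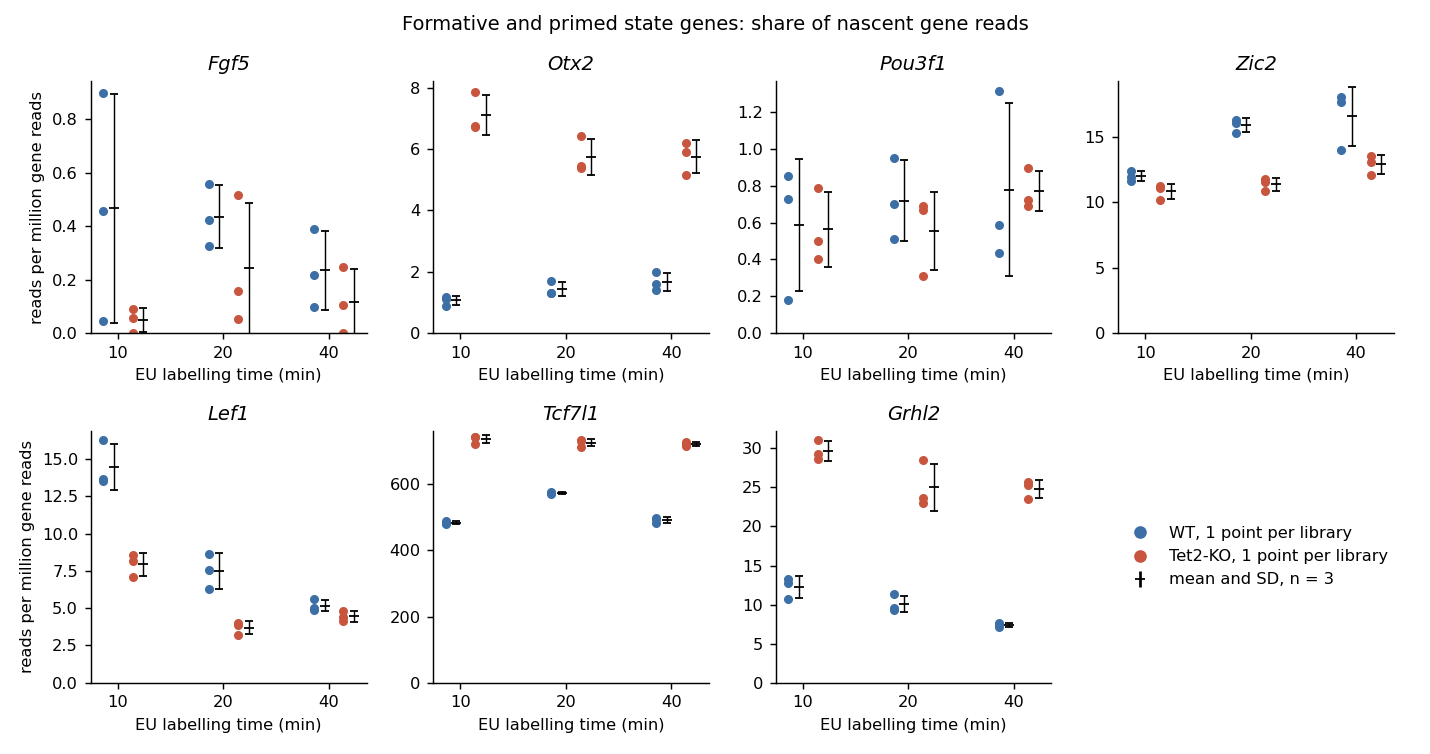
Share of gene reads (CPM) of the 7 members in each of the 18 libraries, by EU time and genotype, with the mean and SD of 3 libraries beside the points (bars that reach below 0 are not drawn there). *Otx2*, *Grhl2* and *Tcf7l1* lie higher in all *Tet2*-KO libraries, *Lef1* and *Zic2* lower at each time, and *Fgf5* and *Pou3f1* overlap. The share of all genes that separate in this way is not given.

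*Lef1* (ENSMUSG00000027985, chr3:131110471-131224356, plus strand) and *Tcf7l1* (ENSMUSG00000055799, chr6:72626378-72789254, minus strand), which encode the activating and the repressing member of the TCF/LEF family, moved in opposite directions as shares. *Lef1* had 301, 304 and 356 reads in WT at 10 min, 148, 164 and 135 at 20 min and 113, 103 and 115 at 40 min. In *Tet2*-KO it had 184, 154 and 135 reads at 10 min, 73, 62 and 78 at 20 min and 91, 89 and 74 at 40 min. As a share it was lower in *Tet2*-KO at each time without overlap, with a log2 fold change of -0.70 ± 0.08 averaged over times (adjusted p = 1.21e-08, edgeR). The share difference was -0.87 ± 0.13 at 10 min (adjusted p = 1.60e-06), -1.02 ± 0.15 at 20 min (adjusted p = 1.64e-06) and -0.22 ± 0.15 at 40 min (adjusted p = 0.290), all from edgeR. The change from 10 to 40 min was 0.65 ± 0.20 (adjusted p = 0.0388, edgeR). That change did not pass in 7 of 18 fits without 1 library, in the fit without a filter on low counts, with TMM normalization (0.59, adjusted p = 0.0622, edgeR) or with DESeq2 (0.58, adjusted p = 0.057).

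Per ERCC read *Lef1* differed in direction between times. Its level was 0.673 ± 0.038 per 1000 ERCC reads in WT and 0.755 ± 0.037 in *Tet2*-KO at 10 min (SD, n = 3), 1.11 ± 0.24 and 0.760 ± 0.079 at 20 min, and 1.28 ± 0.08 and 1.77 ± 0.25 at 40 min. It was called lower at 20 min (-0.54 ± 0.18, adjusted p = 0.00757) and higher at 40 min (0.47 ± 0.19, adjusted p = 0.0187), and the average was 0.03 ± 0.10 (adjusted p = 0.775, edgeR). The call at 20 min did not pass without WT 20 min replicate 2 (-0.37, adjusted p = 0.112, edgeR). The call at 40 min did not pass without WT 40 min replicate 1 (0.42, adjusted p = 0.0711, edgeR) or *Tet2*-KO 40 min replicate 1 (0.35, adjusted p = 0.136, edgeR).

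*Tcf7l1* was the member with the most reads, at 479 to 576 CPM in WT libraries and 713 to 744 in *Tet2*-KO libraries. WT libraries stood at 488, 479 and 482 CPM at 10 min, 576, 572 and 572 at 20 min and 494, 498 and 483 at 40 min, and *Tet2*-KO libraries at 744, 722 and 742, then 733, 713 and 729, then 728, 721 and 716. The 2 ranges did not overlap. Its log2 fold change of share was 0.50 ± 0.01 averaged over times (adjusted p = 2.22e-27, edgeR), or 1.41-fold, with 0.61 ± 0.02 at 10 min, 0.34 ± 0.02 at 20 min and 0.55 ± 0.02 at 40 min. Among WT groups the share was 483 ± 4.32 at 10 min, 573 ± 2.23 at 20 min and 492 ± 7.96 at 40 min (SD, n = 3). *Tet2*-KO groups held 736 ± 11.98, 725 ± 10.4 and 721 ± 6.03. *Tcf7l2*, a paralog of *Tcf7l1*, went the other way, with 184 and 129 CPM on average in WT and *Tet2*-KO. Its log2 fold change of share was -0.52 ± 0.02 (adjusted p = 3.15e-22, edgeR). *Tcf7*, another paralog, had 8.51 and 10.01 CPM on average in WT and *Tet2*-KO.

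*Grhl2* (ENSMUSG00000022286, chr15:37233036-37363569, plus strand) had 239, 284 and 292 reads in WT at 10 min, 189, 176 and 243 at 20 min and 174, 155 and 146 at 40 min. In *Tet2*-KO it had 698, 516 and 558 reads at 10 min, 538, 444 and 460 at 20 min and 480, 519 and 422 at 40 min. Every *Tet2*-KO library lay above every WT library. The log2 fold change of share was 1.44 ± 0.06 averaged over times (adjusted p = 1.31e-20, edgeR), or 2.72-fold, and 2.42% of all genes tested had a higher one. It was 2.42-fold at 10 min, 2.48-fold at 20 min and 3.35-fold at 40 min, and the change from 10 to 40 min was 0.47 ± 0.14 as share (adjusted p = 0.0345, edgeR) and 0.12 ± 0.18 per ERCC read (adjusted p = 0.686, edgeR). The change as share did not pass in 9 of 18 fits without 1 library, or with TMM normalization (0.41, adjusted p = 0.0614, edgeR). *Grhl2* lies 2.61 kb from *Ncald*, whose share was also higher in *Tet2*-KO, by 0.22 ± 0.08 (adjusted p = 0.0212, edgeR). On the other side *Gm26766*, 189 kb away, was lower, at -0.65 ± 0.07 (adjusted p = 1.38e-09, edgeR).

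At the single EU times the members' calls per ERCC read stood against a broad rise. At 10 min *Otx2*, *Grhl2*, *Tcf7l1* and *Zic2* were called higher and *Fgf5* lower, 4 and 1 of 7, with 79.0% of all genes called higher and 2.10% lower. At 20 min *Otx2*, *Grhl2* and *Tcf7l1* were higher and *Lef1* lower, 3 and 1 of 7, with 53.7% and 4.86% of all genes. At 40 min *Otx2*, *Grhl2*, *Tcf7l1*, *Zic2* and *Lef1* were higher, 5 of 7, with 68.2% of all genes higher and 2.84% lower. *Zic2* at 40 min (0.32 ± 0.14, adjusted p = 0.0293, edgeR) did not pass without WT 40 min replicate 3 (0.19) or *Tet2*-KO 40 min replicate 1 (0.25), without a filter on low counts (adjusted p = 0.0522, edgeR), or with TMM on ERCC transcripts (0.28, adjusted p = 0.0763, edgeR). As shares, *Otx2*, *Grhl2* and *Tcf7l1* were higher at each of the 3 times, 3 of 7, against 17.9%, 17.6% and 18.9% of all genes at 10, 20 and 40 min. Called lower as shares were *Fgf5* and *Lef1* at 10 min, *Lef1* and *Zic2* at 20 min and *Zic2* at 40 min, against 27.1%, 20.7% and 19.6% of all genes.

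**Figure D3:**
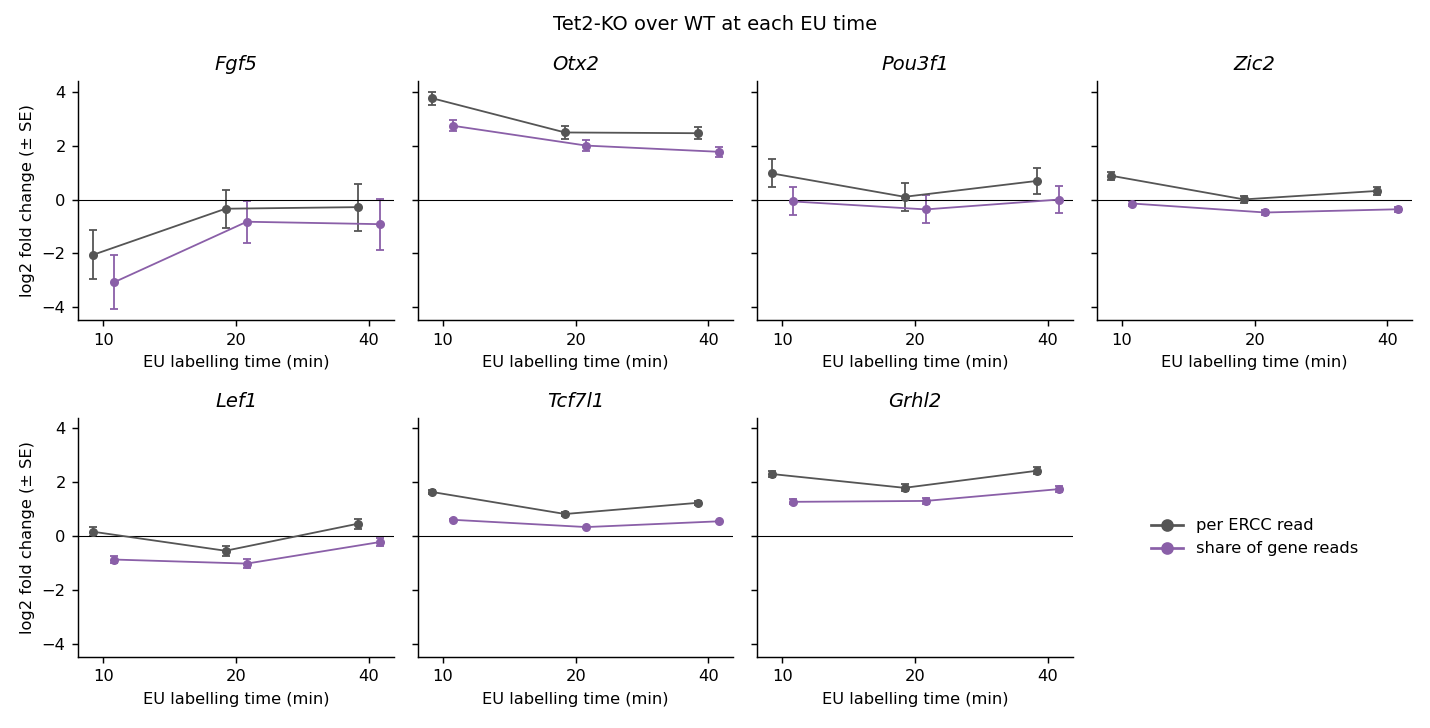
Log2 fold change of *Tet2*-KO over WT at 10, 20 and 40 min of EU, per ERCC read (grey) and as share of gene reads (purple), with SE bars and the times evenly spaced. *Otx2* falls from 3.76 at 10 min to 2.46 at 40 min per ERCC read, and *Fgf5* has the widest bars.

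Whether the genotype difference changed between 10 and 40 min was tested directly. Per ERCC read 3 of 7 members had a smaller difference at 40 min, *Otx2* (-1.30), *Zic2* (-0.56 ± 0.19, adjusted p = 0.0273) and *Tcf7l1* (-0.40 ± 0.12, adjusted p = 0.00999, edgeR), where 19.3% of all genes did and 0.552% had a larger one. The median of this change was -0.29 over all genes and -0.28 over the members. *Zic2* lost its call in 7 of 18 fits without 1 library, and *Tcf7l1* without WT 40 min replicate 2 (-0.36), *Tet2*-KO 10 min replicate 3 (-0.36) or *Tet2*-KO 40 min replicate 2 (-0.34), and both lost it with TMM on ERCC transcripts (-0.53, adjusted p = 0.0916, and -0.36, adjusted p = 0.0824, edgeR). As a share, an alternative chosen after the data were seen, *Lef1* and *Grhl2* had a larger value at 40 min and *Otx2* a smaller one, 2 and 1 of 7, with 5.89% of all genes larger and 3.36% smaller.

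Within a genotype, the share of a gene at 40 min against 10 min shows how its reads grew beside those of other genes. In WT *Otx2* (0.65 ± 0.23, adjusted p = 0.0214) and *Zic2* rose and *Lef1* (-1.48 ± 0.14, adjusted p = 8.86e-11) and *Grhl2* (-0.73 ± 0.11, adjusted p = 2.03e-06) fell in edgeR's test, 2 and 2 of 7, against 16.1% of all genes higher and 29.5% lower. The *Otx2* value did not pass without WT 10 min replicate 1 (0.54, adjusted p = 0.0849, edgeR), WT 40 min replicate 1 (0.50, adjusted p = 0.133, edgeR) or a filter on low counts (0.65, adjusted p = 0.0779, edgeR). In *Tet2*-KO *Lef1* (-0.84 ± 0.15, adjusted p = 2.90e-05) and *Grhl2* (-0.26 ± 0.09, adjusted p = 0.0282) fell in the same fit, 2 of 7, against 20.0% of all genes lower and 16.5% higher. *Grhl2* in *Tet2*-KO did not pass without *Tet2*-KO 10 min replicate 1 (-0.22), 40 min replicate 1 (-0.27) or 40 min replicate 3 (-0.22), with TMM (-0.21, adjusted p = 0.0673, edgeR) or with DESeq2 (-0.22, adjusted p = 0.054). Only 2.44% of all genes tested fell further than *Lef1* in WT.

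The slope of a level on EU time was taken as a synthesis rate, by least squares over 9 libraries of each genotype. For *Otx2* it was 0.0118 ± 0.0014 reads per 1000 ERCC reads per min (SE) in WT and 0.0539 ± 0.0057 in *Tet2*-KO, a ratio of 4.57 ± 0.72. For *Grhl2* the rates were 0.0385 ± 0.0073 and 0.235 ± 0.013, a ratio of 6.10 ± 1.21. *Tcf7l1* had 3.09 ± 0.42 and 7.16 ± 0.39, a ratio of 2.32 ± 0.34. All genes together had a ratio of 1.55 ± 0.15, and no test was run on rates. The ratio was 1.20 ± 0.15 for *Zic2*, 1.64 ± 0.58 for *Pou3f1* and 1.96 ± 0.62 for *Lef1*, and for *Fgf5*, at 1.11 ± 1.41, the error was larger than the value. The rates depended on the times used. From 10 and 20 min alone the ratio was 3.11 for *Otx2*, 2.54 for *Grhl2*, 0.737 for *Zic2* and 0.0105 for *Lef1*. From 20 and 40 min alone it was 5.52, 13.4, 1.57 and 6.05. The 1.55 of all genes used all 3 times, so it is no yardstick for these. At 10, 20 and 40 min *Tcf7l1* stood at 22.6, 84.4 and 121.5 reads per 1000 ERCC reads in WT and 70.3, 149.4 and 286.7 in *Tet2*-KO. All genes stood at 46.7, 147 and 247 gene reads per ERCC read in WT and 95.4, 206 and 397 in *Tet2*-KO. *Lef1* grew 1.90-fold in level per ERCC read from 10 to 40 min in WT and 2.34-fold in *Tet2*-KO, where all genes together grew 5.29-fold and 4.16-fold and *Otx2* grew 8.29-fold and 3.37-fold.

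**Figure D4:**
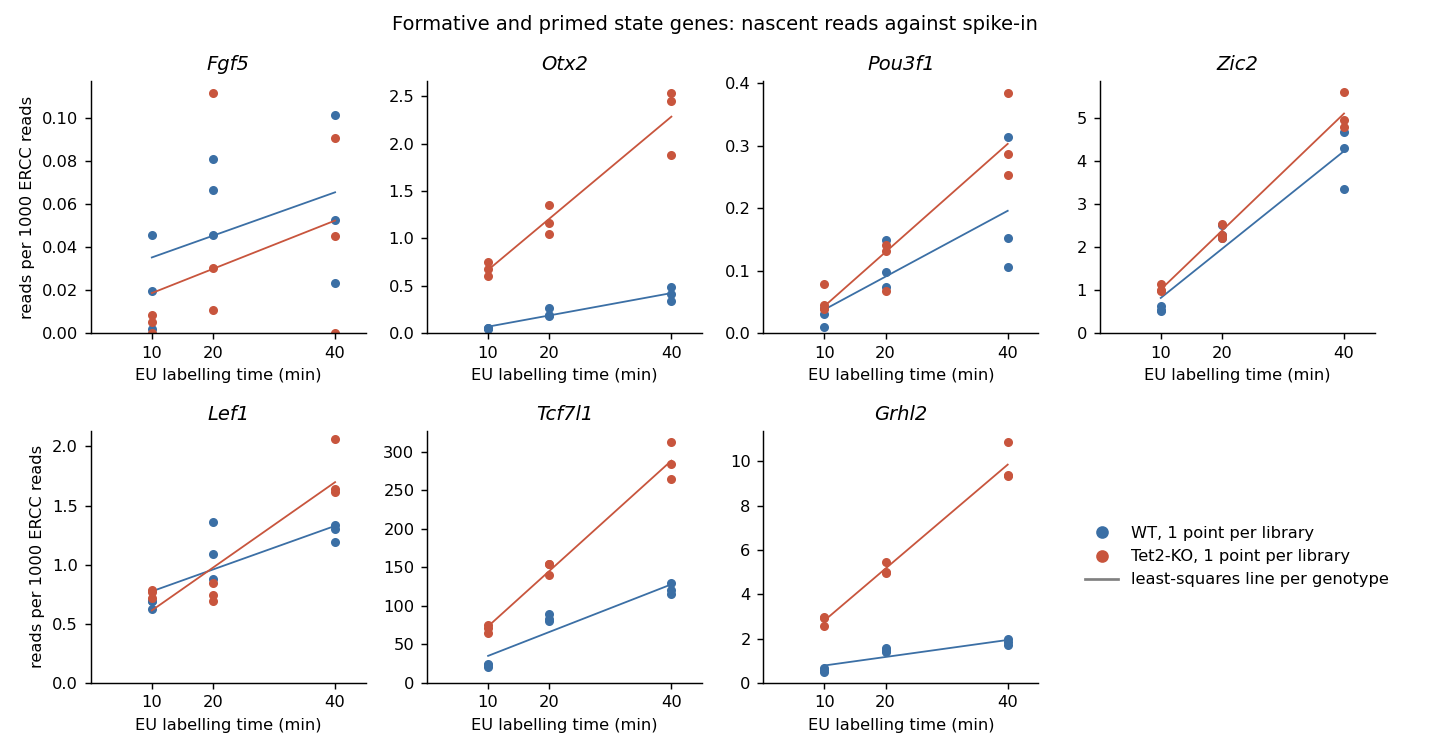
Reads per 1000 ERCC reads of the 7 members against EU labelling time in min, with 1 point per library and a least-squares line per genotype. The lines separate for *Otx2*, *Grhl2* and *Tcf7l1*, with rate ratios of 4.57, 6.10 and 2.32, and run close for *Zic2*.

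Levels of the members can be ranked only per length. Per kb of annotated exon, the level at 40 min in WT was 31.0 ± 1.73 reads per 1000 ERCC reads for *Tcf7l1* (SD, n = 3), 1.43 ± 0.24 for *Zic2*, 0.213 ± 0.015 for *Grhl2*, 0.145 ± 0.009 for *Lef1*, 0.0979 ± 0.0176 for *Otx2*, 0.0495 ± 0.0284 for *Pou3f1* and 0.0236 ± 0.0157 for *Fgf5*. The ranges of *Otx2* and *Pou3f1*, and of *Pou3f1* and *Fgf5*, overlapped. In *Tet2*-KO at 40 min *Otx2*, at 0.543 ± 0.084, stood above *Lef1*, at 0.201 ± 0.029, and no neighbours in the order overlapped. Because the counts had the pattern of counting over whole gene spans, levels per kb of exon are raised for genes with long introns. Per kb of the whole gene span, which introns dominate in *Tcf7l1*, the order in WT at 40 min began with *Zic2*, at 0.931 ± 0.156. *Tcf7l1*, at 0.746 ± 0.042, came second with an overlapping range, and *Pou3f1*, at 0.0495, ranked next. *Fgf5* was lowest by either length at 40 min in both genotypes.

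Other genes of the same biology were taken as lists, described by their calls of share averaged over times in edgeR's test. The background was 24.6% higher and 32.0% lower as shares, and 80.5% higher and 4.15% lower per ERCC read. Of 16 other formative and primed epiblast genes, 14 were tested, 5 were higher and 5 lower, with a median log2 fold change of 0.02, and per ERCC read 11 were higher and 1 lower. The 3 that moved furthest all fell: *Fgf8*, a growth factor, to a log2 fold change of -1.45 ± 0.43 on 4 to 13 reads in WT libraries and 0 to 7 in *Tet2*-KO, *Lefty2*, a Nodal antagonist, to -1.02 ± 0.03, and *Dnmt3l*, a cofactor of de novo DNA methylation, to -0.79 ± 0.04. *Dnmt3b*, a de novo DNA methyltransferase, and *Cdh2*, N-cadherin, named here after their values were seen, were higher by 0.63 ± 0.04 and 0.52 ± 0.05. All 12 naive pluripotency factors were tested, and 10 were lower and 2 higher as shares, with a median of -0.28. Per ERCC read 9 were called higher and 1 lower, with a median of 0.46 against 0.70 over all genes. *Zfp42* went from 539 to 113 CPM on average (-2.25 ± 0.02), *Dppa3* changed by -0.84 ± 0.17 and *Klf4* by -0.64 ± 0.02. Both tested core factors were higher, *Sall4* by 0.33 ± 0.03 and *Pou5f1* by 0.16 ± 0.03. Of 13 paralogs of members 9 were tested, and 4 were higher and 3 lower (8 higher per ERCC read), led by *Pou3f2* at 1.58 ± 0.26 and *Otx1* at -0.88 ± 0.31.

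More genes of the pathways around the members fell than rose as shares. Per ERCC read more rose than fell in the FGF and Wnt lists, on a scale where 80.5% of all genes were called higher and 4.15% lower. Of 10 FGF receptors and ERK output genes, 5 were lower and 1 higher (3 and 7 per ERCC read), with *Egr1*, an immediate early factor, at -3.57 ± 0.09, and the feedback inhibitors *Spry4* and *Spry2* at -1.55 ± 0.05 and -1.06 ± 0.04. *Egr1* had 145 to 1437 reads in WT libraries and 16 to 62 in *Tet2*-KO. Its difference was not steady over EU times. In WT it stood at 61.1 ± 4.56 CPM at 10 min, 17.0 ± 0.84 at 20 min and 7.53 ± 0.85 at 40 min (SD, n = 3). In *Tet2*-KO it stood at 1.79 ± 0.47, 2.46 ± 0.71 and 1.05 ± 0.14. Of 9 Wnt and TCF/LEF targets tested, 7 were lower and 1 higher (3 and 6 per ERCC read), with *Cdx1* at -1.93 ± 0.08, *Sp5* at -1.33 ± 0.20 and *Axin2*, a feedback inhibitor of the pathway, at -0.88 ± 0.04. Of 7 GRHL2-linked epithelial genes tested, 6 were lower and 1 did not pass the test, with a median of -0.69, and *Grhl2* itself was higher. *Esrp1*, an epithelial splicing factor, changed by -2.02 ± 0.14, *Epcam*, an adhesion molecule, by -1.87 ± 0.07, and *Cldn6*, a tight junction gene, by -0.93 ± 0.33. Per ERCC read 2 of these 7 were higher and 2 lower, so the calls of this list depended on the scale. Their median per ERCC read was 0.04, against 0.70 over all genes.

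**Figure D5:**
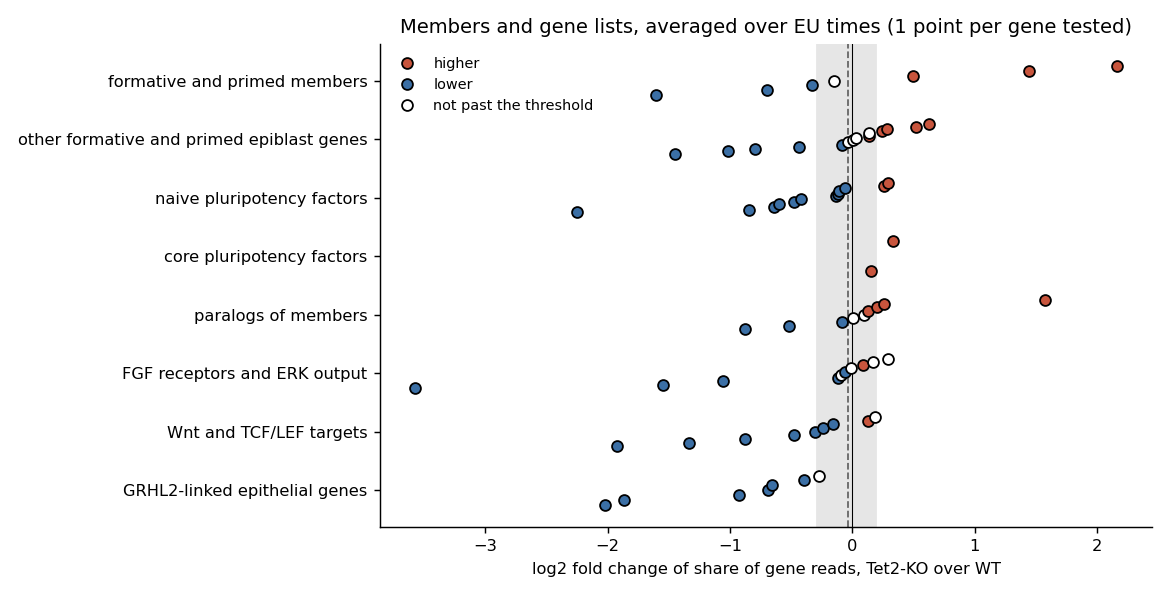
Log2 fold change of share of gene reads, *Tet2*-KO over WT averaged over EU times, for the members and 7 gene lists, with 1 point per gene tested. The grey band and the dashed line are the interquartile range and the median of all genes, and the points of the Wnt and epithelial lists lie mostly to the left.

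Markers of other cell types were summed to see which moved with the genotypes. The summed share of 8 primitive endoderm markers was 37.2 to 66.0 CPM in WT libraries and 32.2 to 51.3 in *Tet2*-KO, with *Gata4* (-0.42 ± 0.10) and *Lamb1* (-0.34 ± 0.05) lower among 6 tested. Of 6 trophectoderm markers, summing to 23.7 to 28.8 and 26.2 to 31.5, 5 were tested, and *Gata3* was higher (1.49 ± 0.09) and *Eomes* and *Krt7* were lower (-0.66 ± 0.10 and -0.77 ± 0.32). The 8 feeder fibroblast markers summed to 2.93 to 16.4 in WT and 5.29 to 12.7 in *Tet2*-KO, with *Col3a1* (1.05 ± 0.29) and *Col1a1* (0.40 ± 0.11) higher among 5 tested. Their sum stood apart in 2 groups, at 15.9 to 16.4 in WT at 10 min and 11.3 to 12.7 in *Tet2*-KO at 20 min, against 2.93 to 7.45 in the other 4, and *Lum* had no read in any WT library. The 6 neural progenitor markers summed to 38.6 to 54.3 in WT and 26.4 to 34.2 in *Tet2*-KO. Among 4 tested *Pou3f2* was higher, *Nes* was lower (-0.53 ± 0.05), and *Olig2* had 62 to 98 reads in WT libraries and 0 to 3 in *Tet2*-KO. The 6 mesoderm and primitive streak markers summed to 5.68 to 9.46 and 4.25 to 5.74, and of 3 tested *Eomes* was lower. *Otx2*, *Grhl2* and *Tcf7l1* were higher in *Tet2*-KO both at 10 min, where the fibroblast sum was higher in WT, and at 20 min, where it was higher in *Tet2*-KO. The part of the other cell types in the members' values was not tested.

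The protein-coding genes whose shares ran most like a member's over the 18 libraries were named by Pearson's r of log2 values, as a description. They share the libraries and their 6 groups with the member. For *Otx2* these were *Ankrd11* (r = 0.990) and *Zfp462* (0.984), and for *Tcf7l1* *Cadm1* (0.996), *Zdbf2* (0.983) and *Tenm4* (0.983). *Grhl2* ran most like *Tmtc1* (0.990), *Ccbe1* (0.988) and *Zc3hav1* (0.987), and *Lef1* most like *Akap5* (0.964), *Spop* (0.954) and *Gcnt2* (0.953). *Zic2* ran most like *Tet2* itself (0.915), *Poglut1* (0.912) and *Wwox* (0.907). The sparsely read *Fgf5* and *Pou3f1* reached at most 0.808, with *Sec23b*, and 0.728, with *Slc3a1*.

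The nearest tested genes on either side of *Tcf7l1*, *Lef1* and *Fgf5* had log2 fold changes of smaller absolute size than these members. That difference was not tested. Beside *Tcf7l1* lay *Tgoln1* (-0.06 ± 0.04) and *Kcmf1* (0.25 ± 0.01), beside *Lef1* *2010110G14Rik* (-0.04 ± 0.28) and *Hadh* (0.27 ± 0.04), and beside *Fgf5* *Prdm8* (-0.53 ± 0.17) and *Cfap299* (-0.03 ± 0.16), as log2 fold changes of share. *Zic2*, at -0.33, had neighbours of like size, with *Pcca* at -0.39 ± 0.02 on one side and *2610035F20Rik* at -0.18 ± 0.16 on the other. *Pou3f1*, at -0.15, lay between *1700057H15Rik* at -0.58 ± 0.20 and *Utp11* at 0.03 ± 0.05.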

How the data were processed

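The authors trimmed reads with Trimmomatic 0.39, aligned them to mm10 and the ERCC sequences with HISAT2 2.2.1 and the GENCODE M19 annotation, and counted them per gene with HTSeq 0.12.4. They deposited these counts without normalization, 1 table per library, with 92 ERCC transcripts. Summary lines without a gene (20.9 to 24.9% of each library) were left out. Of 54446 gene identifiers 54409 were found in GENCODE M21, also on mm10, which gave names and positions.

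Genes were kept by filterByExpr of edgeR 4.0.16 (minimum count of 10, 6 groups), which left 19910 genes and all 7 members. The quasi-likelihood test used 1 fit of 18 libraries in R 4.3.3, with a group per genotype and EU time, two-sided, and Benjamini-Hochberg adjustment. Library sizes were the ERCC totals or the totals of gene reads. Standard errors were derived from the F statistic, as |log2 fold change|/√F. Alternatives were TMM on 18 ERCC transcripts with at least 100 reads, TMM, DESeq2 1.42.0, other filters, a replicate block, other fits of the rate and each library left out. On simulated data with 200 genes changed 2-fold, edgeR recovered 171 of them among 19316 genes on the ERCC scale, averaged over EU times, with 6 unchanged genes called. As shares it recovered 172 among 19437 genes, with 8 called.

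The members and the lists were chosen with earlier results of these data known. Named genes are the members, the 3 list genes with the largest change of share, overlapping and nearest tested genes, markers, and the 3 protein-coding genes most correlated with each member by log2(CPM + 0.5) among genes with mean log2 CPM above 2, of which 1 is not reported here. Replicates of a group differed by 1.66 to 5.52 in mean chi-square per gene, so none was counted as a copy. Replicate numbers did not pair the libraries, since deviations of same-numbered libraries correlated at -0.09 to 0.09 over 45 pairs. Promoters are from RefSeq, and 4 of 7 members matched (*Fgf5*, *Otx2*, *Lef1*, *Tcf7l1*), while *Pou3f1*, *Zic2* and *Grhl2* did not. Figures were drawn with matplotlib 3.10.9.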

Additional observations from a re-analysis of the deposited data

Results flagged for a closer look

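The genotype difference of 3 members changed between 10 and 40 min of EU per ERCC read by a test of the change itself in edgeR. The change of log2 fold change was -1.30 for *Otx2*, -0.56 for *Zic2* and -0.40 for *Tcf7l1*. As a share of gene reads, chosen after the data were seen, it was -0.96 for *Otx2*, 0.65 for *Lef1* and 0.47 for *Grhl2*. *Otx2* passed the threshold on both scales in these fits, and *Tcf7l1* did so too where the share was fitted with TMM (-0.11, adjusted p = 0.00838, edgeR) or DESeq2 (-0.12, adjusted p = 0.000684). The *Otx2* and *Lef1* values as share were each lost without certain single libraries and without a filter on low counts. *Lef1* was also lost with TMM and DESeq2. Per ERCC read *Zic2* and *Tcf7l1* were lost without certain single libraries. TMM on ERCC transcripts lost them too (adjusted p = 0.0916 and 0.0824, edgeR). The *Grhl2* value did not pass in 9 of 18 fits that left out 1 library, with values from 0.41 to 0.49, or with TMM normalization (0.41, adjusted p = 0.0614, edgeR). Groups of 3 libraries were too small to test for a single library apart from the others.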

How the results depend on the processing

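The averaged log2 fold changes of *Otx2*, *Grhl2*, *Tcf7l1* and *Zic2* on both scales, and of *Fgf5* and *Lef1* as share, kept their direction and their side of the threshold under every alternative that gave a value. Those that reversed sign were not past the threshold: *Lef1* per ERCC read was -0.0034 with TMM on ERCC transcripts and -0.0170 to 0.0879 with 1 library left out (below 0 without WT 20 min replicate 3 or *Tet2*-KO 40 min replicate 1), and *Pou3f1* as share was -0.2892 to 0.0525 with 1 library left out (above 0 without WT 40 min replicate 3). With the replicate block the counts of members called were 4 higher per ERCC read and 3 higher and 3 lower as share, and it changed no call. At 10 min per ERCC read, 0 members were lower without a filter (*Fgf5* adjusted p = 0.0523, edgeR), with DESeq2 (adjusted p = 0.0766) and with at least 10 counts in every library, which leaves out *Fgf5*, against 1 in the reported fit. The strict filter left 1 lower at 10 min as share and 1 higher from 10 to 40 min in *Tet2*-KO, where TMM and DESeq2 each gave 1 higher and 1 lower. For the change of the genotype difference from 10 to 40 min, TMM on ERCC transcripts left 1 member lower. Taken as share of gene reads in place of per ERCC read, that change was called higher for 2 members and lower for 1, and these calls did not all hold: TMM lost *Lef1* (0.59) and *Grhl2* (0.41), DESeq2 lost *Lef1* (0.58), no filter lost *Otx2* (-0.96) and *Lef1* (0.65), and TMM and DESeq2 called *Tcf7l1* lower (-0.11 and -0.12). From 10 to 40 min in WT, 1 member was higher without a filter. In WT over time *Tcf7l1* as share was called higher with TMM (0.13) and DESeq2 (0.12), against 0.03 uncalled. The cause of these shifts was not tested. Leaving out 1 library gave, per ERCC read, 0 to 1 lower averaged over times, at 10 min and at 20 min, 3 to 5 higher at 40 min and 1 to 3 with a smaller difference at 40 min. As share it gave 1 to 2 lower at 10 min, 1 to 2 higher in WT over time, and 0 to 1 higher and 1 to 2 lower in *Tet2*-KO. At 10 min per ERCC read *Pou3f1* was called higher without WT 10 min replicate 1 (1.34, adjusted p = 0.027, edgeR). The same held without *Tet2*-KO 10 min replicate 1 (1.17, adjusted p = 0.0497, edgeR). The change of the difference as share lost its calls of *Otx2*, *Lef1* and *Grhl2* without WT 40 min replicate 1. It also lost them without *Tet2*-KO 40 min replicate 2. The averaged values per ERCC read of *Pou3f1* and *Fgf5* passed the threshold in 7 and 3 of 18 such fits. *Fgf5* and *Pou3f1* had at most 20 and 27 reads in a library, which limits both.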
